A study of Mus musculus with 41 samples.

Results

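Acetylation of lysine 27 of histone H3 (H3K27ac) was compared between white adipocytes (ADIPO) and gastrocnemius muscle (GAS) of the mouse. The comparison rests on 2 of the 24 peak lists of the series, each pooled from 2 of its 41 samples. Peaks of both lists on chromosomes 1 to 19 were merged where they shared at least 1 bp, which gave 43980 regions. A region was ADIPO-only, GAS-only or called in both tissues, and it was a promoter region where it reached within 2000 bp of an annotated transcription start site (TSS) and distal otherwise. There were 9381 ADIPO-only, 23788 GAS-only and 10811 shared regions.

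Both groups carried the strain label C57BL/6 and were untreated controls. GAS stood for nuclei of whole snap-frozen muscle of young adult female mice without a transgene, so every cell type of the tissue could contribute. ADIPO stood for nuclei from fat of young adult female AdipoCre-NuTRAP mice, in which a Cre recombinase active in adipocytes tags the nuclear envelope, and the tagged nuclei were captured on beads. The methods call this fat epididymal and the mice female. CUT&Tag, which uses an antibody to bring a transposase to chromatin that carries a histone post-translational modification (hPTM), was run on nuclei of both tissues with butyrate in the buffers. Replicates were pooled before peaks were called, and the study's sequencing summary lists the second ADIPO library as far shallower than the first. Each tissue therefore had 1 list, no spread between replicates could be computed and no difference between the tissues was tested. Shares carry 95% Wilson intervals, which cover counting error only. A weaker mark per nucleus and fewer nuclei of a cell type cannot be told apart in such lists.

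H3K27ac is deposited at active promoters and enhancers, where it neutralises the charge of the histone tail and recruits readers that aid transcription. Promoters of widely used genes tend to carry it in many tissues, whereas enhancers carry it in a tissue-dependent way. In white adipocytes, PPARG with its partner RXR, C/EBP factors and EBF factors bind enhancers of genes for lipid storage and hormone secretion. In skeletal muscle, the MyoD family binds E-boxes and MEF2 and sine oculis family factors bind enhancers of genes for the sarcomere, calcium handling and energy supply.

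The DNA under the strongest tissue-only regions is shown first, because the motif shares given further on were counted in such windows. Windows are the plus strand of GRCm38, 200 bp long and centred on the highest signal of the strongest peak of a region. Capitals mark matches, on either strand, to a C/EBP motif (TTGCNNAA), an NFI half-site (TTGGCA), an EBF motif (CCCNNGGG), an E-box (CAGCTG), a MEF2 motif (CTATTTNTA), a MEF3 motif of the sine oculis family (TCAGGTTTC) or an AP-1 motif (TGANTCA). A match is a description of the letters and not evidence of binding. Windows overlapping an exon were passed over, and for Adipoq and Ckm the window was ended where an annotated exon begins. The first 3 of each tissue are the strongest distal windows that held any of 11 searched motifs.
ADIPO-only, intron of Adcy5, chr16:35216896-35217095: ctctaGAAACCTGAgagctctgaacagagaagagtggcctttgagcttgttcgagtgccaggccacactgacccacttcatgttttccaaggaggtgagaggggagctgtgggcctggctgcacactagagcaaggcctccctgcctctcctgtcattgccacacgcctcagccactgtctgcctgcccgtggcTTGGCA
ADIPO-only, intron of Fabp12, chr3:10290098-10290297: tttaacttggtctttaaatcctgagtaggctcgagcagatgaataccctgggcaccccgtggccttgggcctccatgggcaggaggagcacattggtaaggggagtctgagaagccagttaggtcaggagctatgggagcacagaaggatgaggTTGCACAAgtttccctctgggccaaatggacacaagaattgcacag
ADIPO-only, intron of Trabd2b, chr4:114541308-114541507: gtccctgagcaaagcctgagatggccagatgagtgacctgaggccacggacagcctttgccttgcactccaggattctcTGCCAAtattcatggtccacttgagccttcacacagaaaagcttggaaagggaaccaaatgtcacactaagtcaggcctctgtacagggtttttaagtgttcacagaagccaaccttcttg
GAS-only, intron of Rcsd1, chr1:165677090-165677289: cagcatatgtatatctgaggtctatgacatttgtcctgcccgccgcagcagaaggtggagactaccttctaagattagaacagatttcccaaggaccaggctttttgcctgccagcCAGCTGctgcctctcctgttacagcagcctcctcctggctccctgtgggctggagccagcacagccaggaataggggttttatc
GAS-only, intron of Adcy9, chr16:4401017-4401216: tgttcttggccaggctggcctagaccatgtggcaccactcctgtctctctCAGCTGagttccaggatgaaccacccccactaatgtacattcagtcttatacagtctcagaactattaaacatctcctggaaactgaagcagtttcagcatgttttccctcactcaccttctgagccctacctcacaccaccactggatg
GAS-only, intergenic near Cmya5, chr13:93000777-93000976: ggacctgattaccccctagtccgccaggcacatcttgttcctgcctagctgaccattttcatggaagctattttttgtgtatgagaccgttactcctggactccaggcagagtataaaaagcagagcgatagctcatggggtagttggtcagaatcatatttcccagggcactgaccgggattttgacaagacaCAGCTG

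The next windows, chosen after the motif shares had been seen, are the strongest further ADIPO-only windows with a C/EBP match and the strongest GAS-only windows with a MEF2 match. C/EBP factors act in adipocyte differentiation and MEF2 factors in muscle differentiation.
ADIPO-only, intron of Tmem266, chr9:55425526-55425725: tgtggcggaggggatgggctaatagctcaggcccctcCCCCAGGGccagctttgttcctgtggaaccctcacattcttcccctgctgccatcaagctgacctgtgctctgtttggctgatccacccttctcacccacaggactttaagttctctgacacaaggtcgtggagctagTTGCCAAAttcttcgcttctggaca
ADIPO-only, intron of Mylk, chr16:34984272-34984471: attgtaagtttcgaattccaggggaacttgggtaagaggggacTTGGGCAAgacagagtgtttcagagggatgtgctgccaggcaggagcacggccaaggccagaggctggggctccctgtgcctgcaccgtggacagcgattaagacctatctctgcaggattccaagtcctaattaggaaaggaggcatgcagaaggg
ADIPO-only, intergenic near G6pc, chr11:101379124-101379323: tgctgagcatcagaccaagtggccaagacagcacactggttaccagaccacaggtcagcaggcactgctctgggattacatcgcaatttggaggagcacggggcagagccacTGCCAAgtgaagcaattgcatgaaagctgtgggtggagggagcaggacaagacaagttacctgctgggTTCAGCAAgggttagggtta
GAS-only, intron of Tbc1d8, chr1:39458002-39458201: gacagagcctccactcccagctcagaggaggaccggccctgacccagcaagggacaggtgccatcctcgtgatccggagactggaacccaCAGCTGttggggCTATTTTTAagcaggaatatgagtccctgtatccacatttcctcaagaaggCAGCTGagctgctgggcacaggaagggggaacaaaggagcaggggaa
GAS-only, intron of Jph2, chr2:163363370-163363569: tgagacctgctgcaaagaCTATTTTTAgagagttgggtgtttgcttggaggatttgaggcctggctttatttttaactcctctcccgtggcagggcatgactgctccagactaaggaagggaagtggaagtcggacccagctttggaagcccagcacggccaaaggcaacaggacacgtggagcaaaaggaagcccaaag
GAS-only, intron of Efcab11, chr12:99716203-99716402: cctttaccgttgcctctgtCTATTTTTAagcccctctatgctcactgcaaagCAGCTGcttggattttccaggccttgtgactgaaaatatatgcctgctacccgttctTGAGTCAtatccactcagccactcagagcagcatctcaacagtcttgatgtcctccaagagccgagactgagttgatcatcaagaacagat

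The last pair lies at the promoters of the adipocyte hormone gene Adipoq and the muscle creatine kinase gene Ckm. The windows were placed from the signal alone, and their centres fell 64 bp from an annotated Adipoq TSS and 1 bp from an annotated Ckm TSS.
ADIPO-only, Adipoq promoter, chr16:23146372-23146535: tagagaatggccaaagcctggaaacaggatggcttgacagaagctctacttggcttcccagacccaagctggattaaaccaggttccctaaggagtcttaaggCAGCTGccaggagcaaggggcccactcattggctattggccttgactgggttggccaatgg
GAS-only, Ckm promoter, chr7:19410926-19411024: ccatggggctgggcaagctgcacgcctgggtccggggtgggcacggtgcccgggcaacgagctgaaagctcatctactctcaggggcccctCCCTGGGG

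The ADIPO list held 22713 peaks over 53.8 Mb with a median width of 1836 bp, and the GAS list held 35172 peaks over 196 Mb with a median width of 3903 bp. The deposited signal is whole-number fragment coverage that was not scaled for depth, and it averaged 62.0 per called base in ADIPO and 9.75 in GAS. The GAS list thus reached down to far shallower and wider stretches than the ADIPO list. Signal is therefore given as the share of a list's own signal on chromosomes 1 to 19, in parts per 1e6 (ppm). The smallest called peak held 14.1 ppm in ADIPO and 10.0 ppm in GAS. A value of 0 means that no peak was called there, not that the mark was absent. Depth, tissue, the capture of nuclei and the mouse line differed between the lists together and cannot be told apart.

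Few distal regions and many promoter regions were called in both tissues. Of 24928 distal regions, 2946 (11.8%, 11.4 to 12.2) were called in both, 5875 (23.6%) in ADIPO only and 16107 (64.6%) in GAS only. Of 19052 promoter regions, 7865 (41.3%) were called in both, 3506 (18.4%) in ADIPO only and 7681 (40.3%) in GAS only. The promoter share exceeded the distal share by 29.5 percentage points, with an interval of 28.7 to 30.3. The order held on each of the 19 chromosomes, where the difference ranged from 25.9 to 34.2 points. Counted in bases, 28.3 Mb were shared, which was 52.7% of the ADIPO bases and 14.4% of the GAS bases.

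With 5000 peaks of largest total signal from each list the order was kept at lower levels. In that comparison 216 of 3021 distal regions (7.15%, 6.28 to 8.12) and 1103 of 5321 promoter regions (20.7%, 19.7 to 21.8) were called in both tissues. The reduced lists still covered 22.9 Mb in ADIPO and 72.7 Mb in GAS. With the lists reduced to equal bases the shares were 3.83% and 12.7%, and the difference was 8.88 points. With the 5000 peaks the tissue-only shares were close to each other, with 43.2% ADIPO-only and 49.7% GAS-only among distal regions. Many regions that were tissue-only among the 5000 had a weaker peak in the other tissue's full list. Of the 1304 ADIPO-only distal regions, 760 (58.3%) lay outside the full GAS list, and of the 1501 GAS-only distal regions, 1082 (72.1%) lay outside the full ADIPO list. At promoters these shares were lower, at 28.3% and 46.0%.

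**Figure D1:**
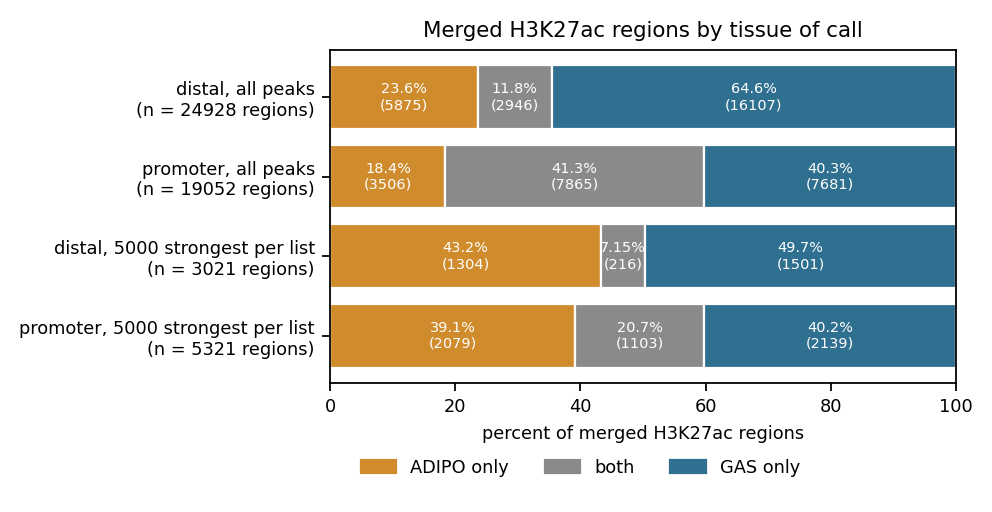
Bars give the percent of merged H3K27ac regions called in ADIPO only, in both tissues or in GAS only, with the number of regions in brackets, for distal and promoter regions and for all peaks or the 5000 strongest peaks of each list. The grey segment for regions called in both tissues is wider at promoters (41.3% and 20.7%) than at distal regions (11.8% and 7.15%).

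Stronger peaks were called in the other tissue more often, at promoters and distally. From the weakest to the strongest of 5 equal groups of ADIPO peaks by total signal, the share found in the GAS list went from 41.1% to 58.4% for distal peaks and from 54.0% to 81.8% for promoter peaks. For GAS peaks it went from 9.30% to 34.8% distally and from 29.4% to 67.5% at promoters. In each group of both lists the promoter share was the higher one. Total signal is summed over the peak, and a wider peak is overlapped more easily. Distal peaks found in the other list had median widths of 1875 bp in ADIPO and 4348 bp in GAS, against 1705 and 3589 bp for the others. The part of width in this trend was not tested. Shared promoter regions held 52.5% of the ADIPO signal and 37.2% of the GAS signal, although they were 7865 of 43980 regions. ADIPO-only distal regions held 19.2% of the ADIPO signal and GAS-only distal regions 32.3% of the GAS signal.

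Signal shares at regions called in both tissues leaned to ADIPO. The log2 ratio of the shares, ADIPO over GAS, had a median of 0.54 at distal and 0.60 at promoter regions, so that ratios are read against this shift. At distal regions the share was at least 4-fold higher in ADIPO in 335 (11.4%) and in GAS in 65 (2.21%) of 2946 regions. At promoters the numbers were 717 (9.12%) and 189 of 7865. Distal ADIPO-only regions lay farther from protein-coding TSS than GAS-only ones, with medians of 25.1 and 18.1 kb, and 41.6% against 28.7% were intergenic. They were also narrower, with median widths of 1705 and 3589 bp.

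Promoters of adipocyte genes carried H3K27ac peaks throughout in ADIPO and in part in GAS. Of 51 genes in 4 adipocyte lists, 51 had a promoter peak in ADIPO and 33 in GAS. A promoter peak in ADIPO alone was called at 18 of the 51, against 9.06% of all 20780 protein-coding genes, and in GAS alone at 0 of the 51, against 10.9%. Both tissues had a promoter peak at the other 33, against 37.9% of all genes. With the 5000 strongest peaks the ADIPO-only count was 29 (9.09% of all genes) and the count for both was 20 (5.90%). Over the gene and 10 kb on either side, the locus, the signal share was at least 4-fold higher in ADIPO at 32 of 51 genes, against 12.1% of all genes, and in GAS at 0, against 13.4%. The median log2 ratio of locus shares was 2.60 on the log2(share + 1 ppm) scale, and 2.72 with loci without a peak set to the smallest called peak. The median over all genes was 0.00 on the first scale and 0.50 on the second.

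Adipocyte transcription factors differed in how far the ADIPO share exceeded the GAS share. Pparg, the nuclear receptor that directs fat cell differentiation (chr6:115360951-115490399), had a locus share of 609 ppm in ADIPO and 12.9 ppm in GAS, and its promoters had peaks in ADIPO only. Cebpa (chr7:35119293-35121928), which encodes the C/EBP factor of mature adipocytes, had 627 and 37.0 ppm. A single ADIPO peak from 12.7 to 58.5 kb downstream of the Cebpa TSS held 1441 ppm, close to the 0.157% held by the strongest ADIPO peak. The early B cell factor genes Ebf1 and Ebf2 had 895 and 383 ppm in ADIPO and no called peak in GAS. Srebf1, a regulator of lipid synthesis, had 903 ppm in ADIPO and 173 ppm in GAS, and its ADIPO promoter peak was 35413 bp wide. Promoter peaks in both tissues were called at 9 of the 12 factors, Cebpa and Srebf1 among them. The locus share was higher in ADIPO at 12 of 12, and Rxra, the partner of PPARG, had 781 and 611 ppm.

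Genes for secreted proteins had the largest ADIPO-only share of the 4 adipocyte lists, with a promoter peak in ADIPO alone at 6 of 9. These were Adipoq, Lep, Retn, Cfd, Rbp4 and Nrg4. Adipoq, which encodes adiponectin (chr16:23146536-23158028), had 414 ppm in ADIPO and no peak in its GAS locus. The ADIPO peak that covers its TSS and the promoter sequence printed above was 11712 bp wide, began 4.51 kb upstream and held 373 ppm. The only called GAS peak within 30 kb of that TSS lay 21.1 to 16.3 kb upstream and held 23.5 ppm. The leptin gene Lep (chr6:29060220-29073877) had 609 ppm in ADIPO, with a peak over its TSS of 467 ppm and an ADIPO-only distal region further downstream of 302 ppm, and none in GAS. The resistin gene Retn had 319 ppm and the adipsin gene Cfd 511 ppm in ADIPO, again with no GAS peak. Lpl, whose lipase frees fatty acids from circulating lipoproteins for both fat and muscle, had promoter peaks in both tissues and locus shares of 456 and 162 ppm.

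Lipid droplet and lipolysis genes had a promoter peak in ADIPO alone at 5 of 14. The droplet coat gene Plin1 (chr7:79720218-79732903) had 635 ppm in ADIPO and no GAS peak, and the fatty acid carrier gene Fabp4 had 323 ppm and no GAS peak. The droplet fusion gene Cidec had 566 and 36.1 ppm. The beta-3 adrenergic receptor gene Adrb3 had 607 and 32.9 ppm. Genes for lipolytic enzymes had promoter peaks in both tissues, with Lipe at 830.2 and 116 ppm and Pnpla2 at 619 and 127 ppm. Cidea, a droplet protein gene active in brown and beige fat, had the lowest ADIPO share of the 51, with 21.6 ppm against 11.9 ppm.

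Among 16 genes of fatty acid and triglyceride synthesis, 4 had a promoter peak in ADIPO alone and 12 in both tissues. Fasn, the fatty acid synthase gene (chr11:120805846-120824547), had 574 ppm in ADIPO and 36.4 ppm in GAS. Agpat2, whose enzyme acts in triglyceride assembly, had 499 and 13.0 ppm, and Pck1, which supplies glycerol for it, had 454 ppm and no GAS peak. Me1, which supplies NADPH, had nearly equal shares of 223 and 225 ppm and was the only gene of the 51 whose share was not higher in ADIPO. Its ADIPO promoter peak was among the weaker ones of its list, at the 18.8th percentile.

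Muscle genes showed the converse pattern with more loci at 0. No ADIPO peak was called in 33 of 67 muscle loci, against 8543 of all 20780 loci. No GAS peak was called in 10 of 51 adipocyte loci, against 7956 of all. Of 67 genes in 4 muscle lists, 62 had a promoter peak in GAS and 21 in ADIPO. A promoter peak in GAS alone was called at 41 of the 67, in ADIPO alone at 0, in both at 21 and in neither at 5, against 10.9%, 9.06%, 37.9% and 42.1% of all genes. The locus share was at least 4-fold higher in GAS at 45 of the 67, against 13.4% of all genes, and in ADIPO at 0, against 12.1%, with a median log2 ratio of -3.34, or -1.94 with 50 kb on either side of the gene. With loci without a peak set to the smallest called peak the median was -2.51, against 0.50 for all genes, and the count 44, against 6.33%. With the 5000 strongest peaks 42 were GAS-only, against 8.60% of all genes, and 1, Tnnc1, was ADIPO-only. The locus share was higher in ADIPO at 8 of the 67 genes, 3 for the sarcomere and 5 for energy supply.

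Of 10 myogenic regulators, 5 had a promoter peak in GAS alone. Myod1 (chr7:46376474-46379099), which starts the muscle programme, had 84.3 ppm in GAS and no ADIPO peak, Myf5 had 42.6 ppm and Myf6 had 93.5 ppm, also with none in ADIPO. Myog had 63.6 ppm in GAS and 14.8 ppm in ADIPO. Mef2c had 459 ppm in GAS, where 11 GAS-only distal regions lay in its locus, against 24.0 ppm in ADIPO. Mef2d, which is widely expressed, had peaks in both, with 384 and 370.4 ppm. Pax7, a marker of satellite cells, the stem cells of muscle, had no called peak in either tissue.

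Sarcomere genes had a promoter peak in GAS alone at 17 of 27. Titin and nebulin, encoded by Ttn (chr2:76703980-76982547) and Neb, had 411 and 327 ppm in GAS with 12 and 10 GAS-only distal regions, and no ADIPO peak. The intermediate filament gene Des had 186 ppm, the tropomyosin gene Tpm1 255 ppm and the fast troponin gene Tnnt3 234 ppm in GAS, again with none in ADIPO. Myh4, the heavy chain gene of the fastest fibres, had 115 ppm in GAS. The slow fibre genes Myh7 and Myl2 had no called peak in either tissue, and the slow troponin genes Tnnt1 and Tnni1 had 33.5 and 162 ppm in GAS. The locus share was higher in ADIPO at 3 of the 27, with 139 against 75.6 ppm at Mybpc1, whose promoter peak was in GAS alone, 278 against 162 ppm at Tnni1 and 603 against 428 ppm at Ldb3, a Z-disc gene. The log2 ratio of 0.49 at Ldb3 lies below the shift of shared regions.

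Genes of excitation and calcium handling were the muscle list with the largest GAS-only share, 13 of 17. The calcium release channel gene Ryr1 had 100.3 ppm, its voltage sensor Cacna1s 293 ppm, the junction gene Jph2 448 ppm and the fast calcium pump gene Atp2a1 210.0 ppm in GAS, with no ADIPO peak at any of them. One of the printed GAS-only windows with a MEF2 match lies in an intron of Jph2. The slow and cardiac forms Atp2a2 and Casq2 had no promoter peak in either tissue. Of 13 energy supply genes, 6 had a promoter peak in GAS alone and 7 in both. Ckm (chr7:19404776-19422841), the muscle creatine kinase gene, had 89.3 ppm in GAS, with a peak of 78.9 ppm over the printed promoter sequence, and none in ADIPO. The muscle phosphofructokinase gene Pfkm had 317 ppm in GAS and 15.5 ppm in ADIPO. The myoglobin gene Mb had 234 ppm in GAS and 523 ppm in ADIPO. Gys1, Eno3, Ldha and Ldhb also had higher ADIPO shares, by log2 ratios of 0.16 to 0.42, which lie below the shift of shared regions.

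**Figure D2:**
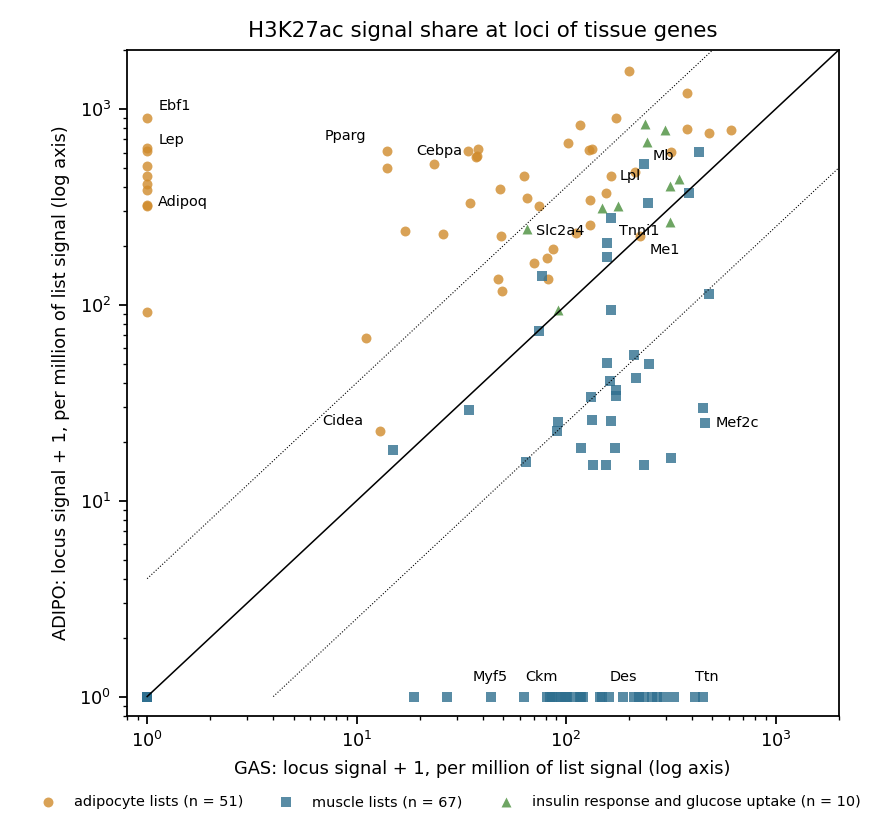
Each point is a gene, with its locus share of the GAS list's signal on the horizontal axis and of the ADIPO list's signal on the vertical axis, both in ppm plus 1 on log axes. The solid line marks equal shares and the dotted lines a 4-fold difference. Adipocyte genes (n = 51) lie above the solid line except Me1, 45 of 67 muscle genes lie below the lower dotted line, and the 10 insulin response genes lie between the dotted lines.

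Peaks of each tissue's own genes were among the strongest of its list. The strongest ADIPO promoter peak of the 51 adipocyte genes had a median rank at the 99.1th percentile of that list by total signal, and 27 of 51 were in its top 1%, against a median of 64.5 and 1.97% for all genes with an ADIPO promoter peak. For the 62 muscle genes with a GAS promoter peak the median was the 97.3th percentile and 17 were in the top 1%, against a median of 71.4 and 3.40% for all genes with a GAS promoter peak. The 33 adipocyte genes with a GAS promoter peak had a median at the 91.8th percentile of the GAS list, and 3 were in its top 1%. The 21 muscle genes with an ADIPO promoter peak had a median at the 66.4th percentile, close to that of all genes, and 0 were in the top 1%. Of all protein-coding gene loci, 11.6% held an ADIPO-only and 28.8% a GAS-only distal region, and longer genes have wider loci. Among muscle genes, 33 of 67 loci held 99 GAS-only distal regions and 1 locus, Myog, held 1 ADIPO-only distal region. Among adipocyte genes, 20 of 51 loci held 57 ADIPO-only and 12 held 29 GAS-only distal regions. Distal regions called in both tissues lay in 16 of 51 adipocyte and 7 of 67 muscle loci, against 8.13% of all loci.

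**Figure D3:**
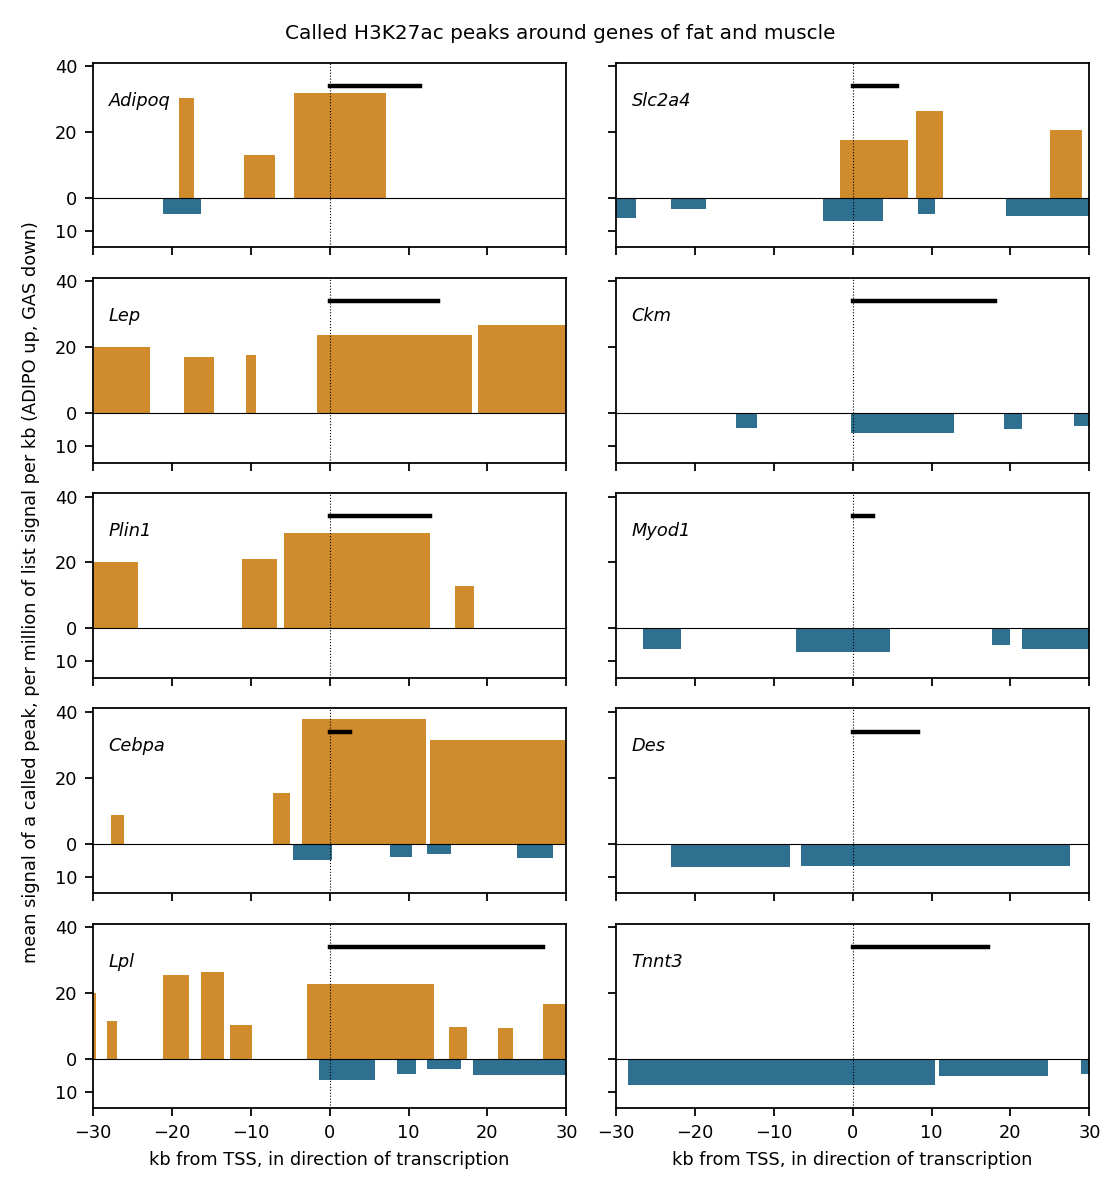
Bars are called H3K27ac peaks within 30 kb of the TSS of 10 genes, drawn from start to end along the direction of transcription, with ADIPO above and GAS below the line and the black bar marking the gene. Height is the peak's mean signal in ppm per kb, and since the GAS list spreads its signal over 196 Mb and the ADIPO list over 53.8 Mb, heights are not compared between tissues. Lep and Plin1 have ADIPO peaks only, Ckm, Myod1, Des and Tnnt3 have GAS peaks only, and Cebpa, Lpl and Slc2a4 have both over or beside the TSS.

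Insulin acts on both tissues, and the 10 genes of insulin response and glucose uptake all had promoter peaks in ADIPO and in GAS, against 37.9% of all genes. With the 5000 strongest peaks 7 of the 10 were called in both, against 5.90%. Slc2a4, which encodes the insulin-responsive glucose transporter GLUT4, had 244 ppm in ADIPO and 63.9 ppm in GAS, and the insulin receptor gene Insr had 438 and 345 ppm. Irs1, which relays the receptor's signal, had 406 and 311 ppm, and the hexokinase gene Hk2 had 783 and 295 ppm. Foxo1, a factor held back by insulin, had 263 and 311 ppm and was the only one of the 10 with a lower share in ADIPO. The log2 ratios at Insr and Irs1 also lay below the shift of shared regions. Of 12 genes of fatty acid uptake and oxidation, 10 were called in both and 2 in GAS alone, the muscle carnitine transferase gene Cpt1b and Acadvl, and with the 5000 strongest peaks 4 were called in both. As reference lists, 9 of 10 housekeeping genes were called in both and Eef1a1 in ADIPO alone, and 9 of 10 genes of unrelated tissues were called in neither and Ins2 in GAS alone. The shares of all genes were 42.1% in neither, 10.9% in GAS alone and 9.06% in ADIPO alone.

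The strongest ADIPO-only promoter regions lay at Ltbp2 (chr12:84796912-84816109, 641 ppm), Dtx2 (604 ppm), Cmklr1 (550.4 ppm), Plin1 (535 ppm) and a cluster of Prtn3, Elane, Cfd and Med16 (527 ppm). Cmklr1 encodes a receptor for the adipokine chemerin. The strongest ADIPO-only distal regions were in an intron of Adcy5 (472 ppm), which encodes an adenylyl cyclase, in intergenic DNA nearest Nxt1 (464 ppm), in an intron of Fabp12 (404 ppm) close to Fabp4, in an intron of Trabd2b (375 ppm) and downstream of Lep (302 ppm). The strongest GAS-only promoter regions lay at Cystm1 (485 ppm), Lsp1 with Tnnt3 (chr7:142470304-142509270, 306 ppm), Pde4dip (283 ppm), Schip1 and Slc38a9 (259 ppm each). The GAS-only distal regions of largest signal lay nearest Usf3 (333 ppm), Rcsd1 (207 ppm), Aak1 (195 ppm), and Adcy9 and Msi2 (183 ppm each). The GAS-only promoter regions named here were 38967 to 82505 bp wide and the ADIPO-only ones 15803 to 20140 bp.

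Summed over distal regions by nearest protein-coding TSS, ADIPO-only signal was largest at Trabd2b, a negative regulator of Wnt proteins, with 21 regions and 1398 ppm. Bmper (28 regions, 1048 ppm), Sulf2 (882 ppm), Dapk1 (842 ppm), Tshz2 (835 ppm) and Adcy5 (816 ppm) came next. Ebf1 followed with 27 regions and 798 ppm, then Zeb2, Gli2 and Fabp12, with 789, 787 and 729 ppm. GAS-only signal was largest at Rora, an orphan nuclear receptor gene, with 66 regions and 1807 ppm, Pde4d, a phosphodiesterase gene, with 44 regions and 1373 ppm, and Sox6, which represses slow fibre genes, with 49 regions and 1165 ppm. Lpp, Kcnma1, Nfib, Rbfox1, Msi2, Fhod3 and Jarid2 had 711 to 1001 ppm. None of these genes but Ebf1 is in the lists above, and a nearest TSS is a position and not a target.

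Among regions called in both tissues with at least 100 ppm in either, the largest ADIPO to GAS ratio was at the promoter of Chst1, a sulfotransferase gene, with 624 and 10.5 ppm (log2 ratio 5.89). Others with large ratios were 2010003K11Rik (438 and 11.1 ppm), a region with the promoters of Cidec and Jagn1 (459 and 11.7 ppm) and Pnpla3 (417 and 11.8 ppm). The smallest ratio was at Hivep2, with 21.4 ppm in ADIPO and 412 ppm in GAS (log2 ratio -4.27). Sgms1, Retreg1, Rnf150 and Phospho1 followed, with 14.5 to 29.3 ppm in ADIPO and 214 to 445 ppm in GAS.

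H3K18la, lactylation of lysine 18 of histone H3, was measured in both tissues in separate libraries. Of the 5875 ADIPO-only distal regions, 5286 (interval 89.2 to 90.7%) overlapped an ADIPO H3K18la peak and 25.1% (24.0 to 26.2) a GAS H3K18la peak. Of the 16107 GAS-only distal regions, 47.7% (46.9 to 48.4) overlapped a GAS H3K18la peak and 8.62% (8.19 to 9.06) an ADIPO one. Regions called in both overlapped the lists at 91.4% and 80.0%. Each tissue-only class was thus found more often in its own tissue's H3K18la list. The GAS H3K18la list covered 122 Mb and the ADIPO list 75.6 Mb. Among the 5000 strongest peaks 1304 of 1304 ADIPO-only and 96.0% of GAS-only distal regions overlapped their own tissue's H3K18la list, and 53.5% and 36.1% the other tissue's. With the H3K18la lists reduced to equal bases the GAS-only share of 47.7% became 23.7%, against 8.62% for ADIPO H3K18la.

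H3K27ac lists of other cell types overlapped each tissue-only distal class in less than 10% of regions. H3K27ac of post-ischemia macrophages (PIM) overlapped 9.16% of ADIPO-only and 8.62% of GAS-only distal regions, that of bone marrow-derived macrophages (BMDM) 5.86% and 5.35%, and that of embryonic stem cells in serum (ESC-ser) 3.25% and 4.27%. Any of these 3 lists overlapped 12.7% of ADIPO-only, 13.6% of GAS-only and 36.6% of shared distal regions. Among the 5000 strongest peaks the PIM list overlapped 18.1% of ADIPO-only and 24.3% of GAS-only distal regions. H3K18la of cultured myotubes (MT) overlapped 31.0% (30.3 to 31.8) of GAS-only and 23.4% (22.4 to 24.5) of ADIPO-only distal regions, and 65.7% and 40.6% among the 5000 strongest peaks. At promoters the same 3 H3K27ac lists overlapped 53.5%, 29.0% and 84.9% of the classes. Shared regions were also the widest, with medians of 5150 bp distally and 6048 bp at promoters, against 1682 to 3927 bp in the tissue-only classes, and a wider region is overlapped more easily. The part of width in these shares was not tested.

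**Figure D4:**
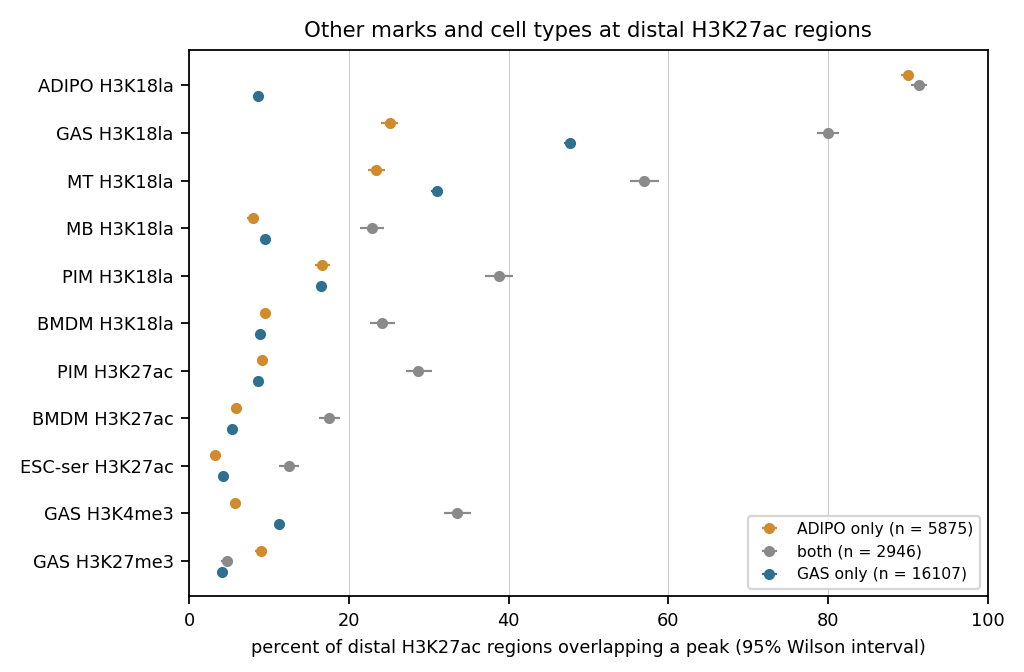
Points give the percent of distal H3K27ac regions that overlap a peak of 11 other lists, with 95% Wilson intervals, for ADIPO-only (n = 5875), shared (n = 2946) and GAS-only regions (n = 16107). The ADIPO H3K18la list overlaps 5286 of 5875 ADIPO-only and 8.62% of GAS-only regions, the GAS H3K18la list has the opposite order (25.1% and 47.7%), and in lists of other cell types both classes lie below the shared regions.

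H3K4me3, a mark of active promoters, and H3K27me3, a mark of Polycomb repression, were available for GAS. In GAS, 98.6% of gene promoters with H3K27ac in both tissues had an H3K4me3 peak, as did 85.9% of ADIPO-only promoters, 77.8% of GAS-only promoters and 26.8% of promoters with H3K27ac in neither. H3K27me3 peaks of GAS were at 27.8% of ADIPO-only, 22.8% of GAS-only, 5.86% of shared and 39.1% of uncalled promoters. Of the 18 adipocyte genes with a promoter peak in ADIPO alone, 9 had an H3K27me3 peak in GAS, namely Adipoq, Lep, Nrg4, Rbp4, Retn, Plin1, Adrb3, Cidea and Ebf2. Of the 33 called in both, 4 had one. Pparg, Ebf1, Fabp4, Cidec, Cfd and the 4 synthesis genes called in ADIPO alone did not have one. Among the 41 muscle genes called in GAS alone, 10 had a GAS H3K27me3 peak and 38 a GAS H3K4me3 peak. GAS held nuclei of all cell types of the muscle, so both marks at a promoter need not come from the same nuclei.

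Promoters called in both tissues were mostly rich in CpG. A promoter was called a CpG promoter when the 500 bp on either side of the TSS held at least 50% GC and at least 0.6 of the CpG number that its base content predicts. Such promoters were 82.4% (81.6 to 83.3) of genes called in both tissues, 66.7% of ADIPO-only, 52.4% of GAS-only and 22.9% of uncalled genes. Of called genes, 72.7% with and 44.9% without a CpG promoter were called in both. Of the 41 GAS-only muscle genes, 6 (14.6%, 6.88 to 28.4) had a CpG promoter, below the share of GAS-only genes. Of the 18 ADIPO-only adipocyte genes 8 had one (44.4%, 24.6 to 66.3), an interval that overlaps that of ADIPO-only genes (64.6 to 68.8).

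The C/EBP motif was found more often in ADIPO-only than in GAS-only distal windows of the kind printed above. It was in 17.4% of 5844 ADIPO-only windows, 6.44% of 14820 GAS-only windows and 12.1% of 2868 shared windows, and in 9.84% of all distal windows. The difference between ADIPO-only and GAS-only windows was 10.9 percentage points (9.88 to 12.0). The NFI half-site was in 22.1% against 11.9% (15.4% of all), a difference of 10.1 points (8.94 to 11.3). The EBF motif was in 9.53% against 5.83% (7.15% of all) and the DR1 core to which PPAR and RXR bind (GGTCANAGG) in 2.17% against 1.66% (1.89% of all). With all peaks these 4 motifs were found more often in ADIPO-only than in GAS-only windows. Shared windows held the NFI half-site at 19.4%, EBF at 9.14% and DR1 at 2.48%, the last above the ADIPO-only share.

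MEF2, MEF3 and ERR motifs were found in few windows of either class, and more often in GAS-only ones. MEF2 was in 1.81% of GAS-only and 0.804% of ADIPO-only windows (1.52% of all), with an interval of -1.31 to -0.672 points for the difference, ADIPO minus GAS. MEF3 was in 0.452% against 0.137% (0.374% of all), and a motif of ERR receptors (TCAAGGTCA) in 0.850% against 0.325% (0.637% of all). The E-box did not follow this order, with 13.9% of GAS-only and 15.4% of ADIPO-only windows (14.6% of all). AP-1 was in 7.00% against 8.98% (7.62% of all), a PU.1 motif (GAGGAAGT) in 1.07% against 1.44% (1.20% of all) and an Sp1 motif (GGGCGG) in 2.91% against 4.47% (3.89% of all). Sp1 was more frequent in shared windows, at 7.78%, than in either tissue-only class. Among the 5000 strongest peaks the E-box and AP-1 differences turned to -0.287 and -0.734 points. The intervals for MEF3 (-0.927 to 0.417), ERR (-0.862 to 0.0738), DR1 (-0.156 to 2.17) and PU.1 (-0.852 to 0.899) included 0 there.

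Mean GC content was 49.7% in ADIPO-only, 48.6% in GAS-only and 51.7% in shared windows. In windows of 45 to 55% GC the C/EBP shares were 16.7% and 6.19% and the MEF2 shares 0.688% and 1.55%, whereas the interval of the E-box difference included 0 (-0.475 to 2.28). In 500 bp windows that of PU.1 included 0 (-0.365 to 0.695). Among the 5000 strongest peaks the C/EBP shares were 17.9% and 6.38% and the MEF2 shares 1.00% and 3.51%. The highest signal was spread too widely to centre a window in 7.98% of GAS-only and 0.528% of ADIPO-only distal regions, which were left out. The median maximum coverage was 174 in distal peaks of ADIPO alone and 26 in those of GAS alone. Windows were thus centred on lower coverage in GAS, and with all peaks 8 of the 11 motifs were more frequent in ADIPO-only windows. The part of centring in the motif shares was not tested. Only exact letters were searched, and binding of these factors was not measured.

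**Figure D5:**
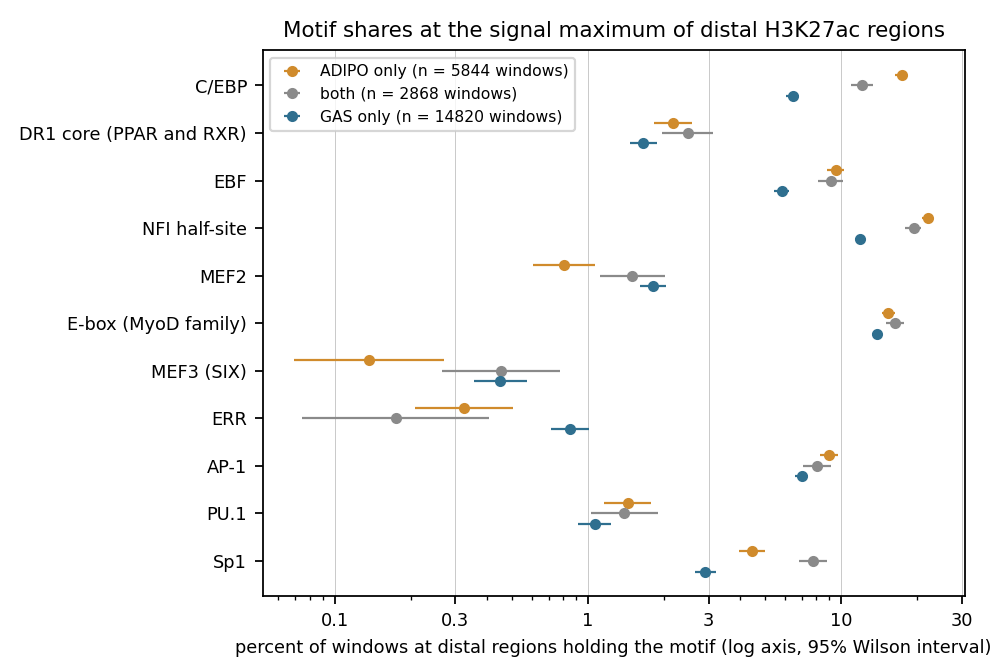
Points give the percent of 200 bp windows at distal regions that hold each of 11 motifs, on a log axis with 95% Wilson intervals, for ADIPO-only, shared and GAS-only regions. C/EBP (17.4% against 6.44%) and the NFI half-site (22.1% against 11.9%) lie to the right for ADIPO-only windows, and MEF2 (1.81% against 0.804%), MEF3 and ERR lie to the right for GAS-only windows.

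Of 53 marker genes of other cell types, 7 had a promoter peak in ADIPO alone, 10 in GAS alone, 8 in both and 28 in neither, against 9.06%, 10.9%, 37.9% and 42.1% of all genes. The counts per cell type are read against all 20780 genes, of which 10140 had a promoter peak in GAS and 9767 in ADIPO. Endothelial markers had peaks at 5 of 10 promoters in GAS and 1 of 10 in ADIPO, with summed locus shares of 373 and 58.2 ppm. Fibroblast and progenitor markers were called at 6 of 10 promoters in GAS and 4 of 10 in ADIPO, with 222 and 387 ppm. Smooth muscle and pericyte markers were at 2 and 4 of 8, with 257 and 525 ppm. Macrophage markers were at 3 and 2 of 10, with 443 and 428 ppm. Cd68 and Spi1 had promoter peaks in both tissues and Cx3cr1 in GAS alone, whereas the loci of Ptprc, Csf1r, Adgre1 and Itgam were at 0 in both. Mesothelial markers were at 1 of 6 in each, with 10.7 ppm in GAS and 164 ppm in ADIPO, and Schwann cell markers at 1 and 3 of 4, with 194 and 466 ppm. Lymphocyte markers were at 0 of 5 in each, with 97.6 ppm in GAS and 145 ppm in ADIPO. The part of such cells in the tissue-only classes was not tested.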

How the data were processed

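CUT&Tag peak lists of H3K27ac in ADIPO and GAS were compared, each made from 2 samples that the labels number as biological replicates. Per the submitters' notes and the study's methods, the authors trimmed reads (Trim Galore 0.6.6), aligned them to mm10 (Bowtie2 2.4.4, SAMtools 1.13), pooled the replicates' fragment coverage (bedtools 2.30) and called peaks with SEACR 1.3, stringent, keeping the top 1% of regions without a control. The deposited signal columns hold coverage summed over a peak and its maximum, in whole numbers not scaled for depth. Read depth per sample was not analysed here, and mean coverage stands in its place.

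Peaks on chromosomes 1 to 19 were merged, classed and assigned to promoters within 2000 bp of any of 141767 GENCODE vM21 transcripts' TSS with Python 3.11.15, numpy 2.4.6, pandas 2.3.3 and scipy 1.17.1, and figures used matplotlib 3.10.9. A gene is called where a peak reaches within 2000 bp of any of its TSS. Sequences are from RefSeq GRCm38.p6, the same build, and windows from chromosome 18 were counted but not printed. Overlaps computed here were checked on simulated peaks with bedtools 2.31.1. With 1 pooled list per group no test between the tissues exists, and p-values are not given. Shares carry 95% Wilson intervals and differences a combination of 2 such intervals, which cover counting error only and treat regions as independent.

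The regions, gene lists and motifs were chosen with earlier results of these data known. Of 234 genes in 21 lists, 233 lie on chromosomes 1 to 19 and were used. Genes and regions were named by list membership, by the 5 largest regions of a class, the 10 largest sums by nearest TSS and the 5 most extreme ratios in each direction, of which 1 region is not reported here. Alternatives were the 5000 strongest peaks, equal bases, other overlap, promoter, flank and window settings.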

Additional observations from a re-analysis of the deposited data

How the results depend on the processing

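No paired analysis was possible because replicates had been pooled before peaks were called, and for the same reason no replicate could be left out. The promoter share called in both tissues stayed above the distal share under each of the 6 alternatives run for it. With the 5000 peaks of largest total signal the distal share was 7.15%, the promoter share 20.7% and the difference 13.6 points, and with the 5000 of largest maximum 7.07%, 25.3% and 18.3 points. With the lists cut to equal bases, which left 3065 GAS peaks, they were 3.83%, 12.7% and 8.88 points. Asking for 50% of the smaller list's bases gave 10.8%, 36.6% and 25.7 points, and protein-coding TSS alone gave 12.9%, 45.6% and 32.7 points. A promoter reach of 1000 bp gave a promoter share of 44.8% and a difference of 32.9 points. ADIPO-only adipocyte genes numbered 29 and 30 with the 5000 strongest peaks by total and by maximum, against 9.09% and 8.23% of all genes. With equal bases they numbered 34, where the share of all genes was 38.9%. By maximum, 2 of 51 adipocyte genes were GAS-only, against 9.94% of all genes, and 3 of 67 muscle genes ADIPO-only, against 8.23%. GAS-only muscle genes fell to 27 with equal bases, against 1.77% of all genes, and 5 were ADIPO-only, against 38.9%. The median log2 ratio of adipocyte loci was 7.60 with equal bases, a value that depends on the added 1 ppm because more GAS loci lost their peaks, and that of muscle loci -1.94 with 50 kb flanks. H3K18la of the same tissue was at 100% of ADIPO-only and 96.0% of GAS-only distal regions among the 5000 strongest peaks. For GAS-only distal regions it was at 97.5% with equal bases of H3K27ac and 23.7% with equal bases of H3K18la. The direction of the motif differences turned for the E-box (-0.287 points) and AP-1 (-0.734 points) with the 5000 strongest peaks, both with intervals that include 0. Except where stated, the causes of these shifts were not tested. The GC band was added after the data had been seen.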

Other observations

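Positional regulators differed along the Hox clusters. Hoxc8, a gene of trunk identity, had 625 ppm in ADIPO and 92.9 ppm in GAS, and its ADIPO promoter peak was 37007 bp wide. Its neighbour Hoxc9 had a promoter peak in GAS alone, although its locus held 376 ppm in ADIPO and 135 ppm in GAS. Further along the cluster the locus shares were higher in GAS, with Hoxc10 at 12.2 ppm in ADIPO and 158 ppm in GAS and Hoxc11 at 0 and 98.0 ppm. Hoxa10 had 15.1 and 150.0 ppm and Hoxa11 0 and 86.2 ppm, and Tbx15 had 309.7 ppm in GAS and no ADIPO peak. Of the 14 positional genes, 6 had a promoter peak in GAS alone, 1 in both and 7 in neither, and Pitx1 and Tbx4, which act in the hindlimb, were among the 7. Of all genes, 10.9% were called in GAS alone, 37.9% in both and 42.1% in neither. The loci of neighbouring Hox genes overlap, so their values are not independent.

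Among 6 thermogenic genes, Ucp1 and Dio2 had no called peak in either tissue, as had 6429 of all 20780 gene loci. Ppargc1a, a coactivator of mitochondrial genes, had promoter peaks in both, with 78.1 ppm in ADIPO and 214 ppm in GAS. Prdm16, a factor of brown fat, had a promoter peak in ADIPO alone, with locus shares of 62.7 and 13.2 ppm. Cox8b had promoter peaks in both tissues and Elovl3 in neither. The shares of all genes were 9.06% in ADIPO alone, 37.9% in both and 42.1% in neither.

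Of the peaks in the GAS H3K27ac list, 0.323% (114 of 35290) lay on the X chromosome, against 1.63% in ADIPO and 1.33% in the GAS H3K18la list. In the H3K27ac lists of BMDM, PIM and ESC-ser the share was 1.28% to 1.65%. The largest single GAS peak held 0.960% of the list's signal in 1103 bp of chromosome 2, and the largest ADIPO peak held 0.157%. The highest coverage in that GAS peak was 44741, against a median of 29 over GAS peaks. No blacklist was applied here, so this peak is part of the total behind each GAS signal share.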
